A study of Mus musculus with 53 samples.

Results

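The transcripts described here are 30 genes of sensory neurons of the dorsal root ganglion (DRG), taken by gene symbol from the 49568 symbols that carry a value in each of 53 sciatic nerve RNA-seq libraries of mice. All 30 symbols were found. The list was drawn up with these data in view, because 1 HFD-STZ library at 24 weeks of age, replicate 7, holds values above 22 on the log2 scale for 15 of the 30 genes. The values of that library, and every comparison that contains it, are therefore given as a description with no test of the members. The study followed nerve transcripts in a prediabetic and a type 2 diabetes model of neuropathy and after dietary reversal (DR).

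All mice were male C57BL/6J. SD mice were the controls, and HFD mice received a diet with 60% of its kcal from fat from 5 weeks of age. HFD-STZ mice were HFD mice that received streptozotocin (STZ), a toxin of pancreatic beta cells, at 12 weeks of age, as 75 mg/kg and, 3 days later, 50 mg/kg. HFD-DR and HFD-STZ-DR mice were moved at 16 weeks from HFD to a control diet, for whose fat content the sources differ, and received it for 8 weeks. At 16 weeks there were 5 libraries of SD, 7 of HFD and 5 of HFD-STZ mice. At 24 weeks there were 8 of SD, 7 of HFD and 8 of HFD-STZ mice, and reversal added 7 of HFD-DR and 6 of HFD-STZ-DR mice. The labels do not say whether each library is 1 mouse, so p-values measure the spread between libraries.

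The deposited values are log2 levels normalized between samples by the authors, and the reads behind each gene are not given. A log2 difference of 1 is a doubling. A value above 22 lies beyond the highest other value of all genes, 20.96, and is no level that could be compared. Each library's median over the genes tested lay between 9.04 and 9.32, and replicate 7 of HFD-STZ at 24 weeks had the highest. All 10 Schwann cell marker genes were measured, with group medians of their mean level between 16.59 and 17.05, as a nerve sample should hold.

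The cell bodies of sensory neurons lie in the DRG, outside the nerve, and the nerve holds their axons, to which some mRNAs are transported. Most of the RNA in a piece of nerve comes from Schwann cells, fibroblasts, endothelial cells, immune cells and fat. Nociceptors, the neurons that report pain, heat and irritants, are defined by their sodium channels, TRP channels and neuropeptides, while neurofilaments mark large axons. In a bulk sample, fewer cells of a type and less RNA per cell cannot be told apart.

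RefSeq promoter windows, 250 bases before to 50 bases after a start site, were given for 19 of the 30 members (23 windows of 32851, build GRCm38.p6). Stretches of 150 bases before the start are shown for Prph, which encodes peripherin, and for Scn11a, a sodium channel gene of nociceptors. They are also shown for Isl1 and Pou4f1, transcription factors of sensory neuron identity. Capitals mark a TATAAA motif in Prph and a CAGCTG motif in the others, and each stretch reads 5′ to 3′ on the strand of the gene.
Prph, chr15:99055024-99055173, plus strand: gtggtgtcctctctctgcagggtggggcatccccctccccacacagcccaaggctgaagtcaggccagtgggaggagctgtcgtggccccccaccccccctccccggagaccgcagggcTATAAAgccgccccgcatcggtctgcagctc
Isl1, chr13:116309689-116309838, minus strand: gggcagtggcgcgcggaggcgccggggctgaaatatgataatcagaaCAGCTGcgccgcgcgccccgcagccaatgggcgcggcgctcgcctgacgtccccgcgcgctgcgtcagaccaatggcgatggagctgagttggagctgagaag
Pou4f1, chr14:104468000-104468149, minus strand: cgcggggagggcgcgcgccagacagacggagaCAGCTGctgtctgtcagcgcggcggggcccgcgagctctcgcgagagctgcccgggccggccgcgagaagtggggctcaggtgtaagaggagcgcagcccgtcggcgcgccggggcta
Scn11a, chr9:119825457-119825606, minus strand: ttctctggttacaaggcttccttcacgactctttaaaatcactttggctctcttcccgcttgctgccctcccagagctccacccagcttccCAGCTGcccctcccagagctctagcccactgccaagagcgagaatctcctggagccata

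On either strand, 8 motifs were searched in the whole windows. CAGCTG, an E-box, was in 9 of the 23 member windows (39.1%) and in 16.3% of all windows. The other motifs were in 1 to 4 member windows. TAATTA, the core of homeodomain sites, was in 13.0% of member windows and 5.29% of all, GGACAG in 17.4% and 22.2%, TATAAA in 4.35% and 13.6%, and CTAATG in 8.70% and 7.36%. CAGCACC was in 4.35% and 7.14%, TGACGTCA in 4.35% and 1.79%, and ATGAAT in 4.35% and 11.1%. TAATTA, TGACGTCA and CAGCTG read the same on both strands, and no motif in the list contains another. The motifs shown were picked after these shares were seen, and a match describes the letters of a window only.

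Some members share sequence with a neighbour, and the library was not stranded according to the study's methods. Nefl, at chr14:68083863-68089095 on the plus strand, and Nefm, at chr14:68082590-68124846 on the minus strand (GENCODE M21, GRCm38), overlap in 1108 exonic bases. This is 32.8% of the exonic sequence of Nefl and 19.2% of that of Nefm, so reads from that stretch cannot be told apart. Uchl1 overlaps its antisense gene Uchl1os in 18.1% of its exonic bases, and Avil overlaps Tsfm in 4.86%. Calca and Calcb, which encode 2 forms of calcitonin gene-related peptide (CGRP), share 12 stretches of 50 bases, 0.715% and 0.952% of their transcripts.

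Replicate 7 of HFD-STZ at 24 weeks held a higher value than each of the other 52 libraries for all 30 members. Among the 15 members with usable levels there, the excess over the median of the 7 other HFD-STZ libraries at 24 weeks ran from 2.73 for Ret to 7.91 for Trpa1, with a median of 5.54 on the log2 scale. The excess over the highest of the 52 other libraries ran from 1.83 for Ret to 5.96 for Trpa1.

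The ion channels of nociceptors were far above their group. Trpa1, the channel for irritants, was at 10.33 in this library, and the 7 others of its group lay between 2.03 and 4.05 with a median of 2.43, a 239.9-fold difference from that median. Scn11a, a sodium channel of nociceptors, was at 11.15 against 3.76 to 5.40 with a median of 4.39, which is a 108.1-fold difference. The sodium channel Scn9a was 35.0-fold, the ATP-gated channel P2rx3 36.6-fold and the heat and capsaicin channel Trpv1 21.1-fold above their medians. No channel value of this library overlapped the range of any group.

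Transcription factors of sensory neuron identity were high as well. Isl1, a LIM homeodomain factor, was at 11.31 against 3.23 to 4.77 with a median of 3.97, a 162.1-fold difference. Pou4f1, a POU homeodomain factor, was at 10.63 against 4.30 to 5.47, 59.1-fold above the median. Both factors act in the nucleus.

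Structural and synaptic transcripts were also above the range of their group. Nefh, the heavy neurofilament subunit, was at 15.02 against 8.87 to 9.69 with a median of 9.27, 53.9-fold. Prph, peripherin, was at 14.55 against 8.52 to 8.98, 50.9-fold. Snap25 and Syt1, parts of the vesicle fusion machinery, were 47.2-fold and 46.6-fold above the group median, the microtubule regulator Stmn2 was 16.2-fold and the ubiquitin hydrolase Uchl1 8.52-fold above it. Gal, the neuropeptide galanin, was at 6.99, 17.5-fold above a median of 2.86, and Ret, the receptor kinase for ligands of the GDNF family, was 6.65-fold above its median.

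The other 15 members were those above 22 in this library. They were the channel and receptor genes Scn10a, Mrgprd, Pirt and Entpd3, the neuropeptide genes Calca, Calcb and Tac1, the identity genes Isl2 and Elavl4, the cytoskeletal genes Nefl, Nefm, Tubb3 and Avil, and Cpne6 and Clec2l. Their values there lay between 49.81 and 60.81. For these genes no fold is given. Genes outside the members were above 22 in the same library as well, among them Prdm12, a nociceptor transcription factor, and Scg2, which encodes a secretory granule protein. In 1 other library, HFD replicate 1 at 24 weeks, 2 genes were above 22, and both were immunoglobulin genes.

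**Figure D1:**
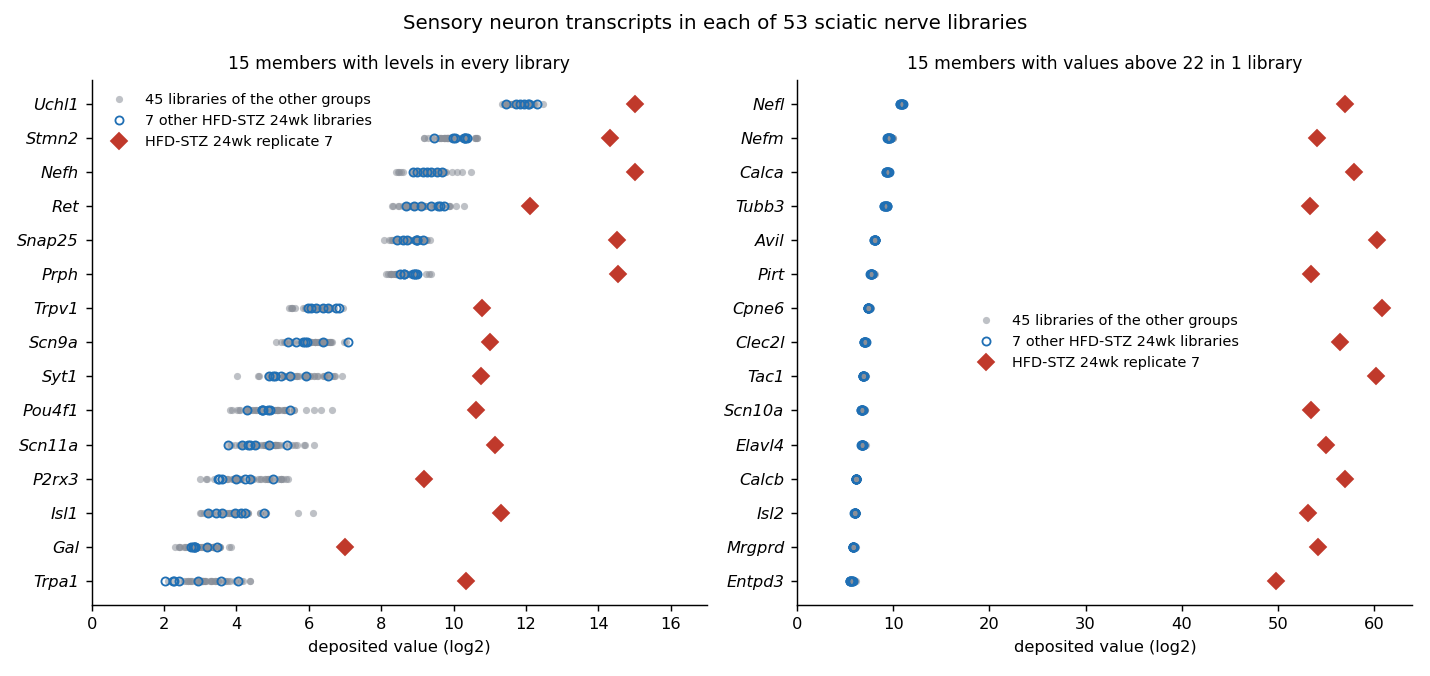
Deposited log2 values of the 30 members in 53 libraries, with 1 row per gene, grey points for the 45 libraries of the other 7 groups, open blue points for the 7 other HFD-STZ libraries at 24 weeks and a red diamond for replicate 7. Left, 15 members with usable levels in every library; right, 15 members with values of 49.81 to 60.81 in replicate 7, which are no levels. The diamond lies to the right of every other point in all 30 rows.

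Other neuronal genes were high in the same library, and Schwann cell, adipocyte and muscle genes were not. Of 31 measured DRG genes outside the members, 25 were above every other library, and 18 exceeded their group median by more than 2. They included Sst at 11.04 against a group median of 1.55, Nppb at 9.22 against 1.23, the vesicular glutamate transporter Slc17a6 at 11.40 against 4.16, and Th, which a class of touch-sensitive DRG neurons expresses, at 11.28 against 4.30. All 16 pan-neuronal genes, the members Snap25 and Stmn2 among them, were above every other library, with an excess of 1.71 to 5.95 over the group median. Rbfox3, the nuclear neuron marker, was at 11.13 against a group median of 5.18.

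Markers of other neurons gave another picture. Of 7 sympathetic neuron genes, Th alone was above every other library, while Dbh, the noradrenaline-forming enzyme, was at 2.63 against a group median of 3.51. Of 5 motor or cholinergic genes only Mnx1 was, at 1.65, and Chat was at 1.83 against 2.21. Chat, Slc18a3, Mnx1 and Lhx3 lay at 0.89 to 2.95 in this library, low levels with no known counting error. Slc5a7 was at 7.50 against 8.89, and ran from 3.26 to 10.62 over the other libraries. This gene differed with diet in the limma tests described below. At 24 weeks HFD mice exceeded SD mice by 4.21 (adjusted p = 0.000339). Without replicate 7, HFD-STZ mice exceeded them by 3.73 (adjusted p = 0.0154), and reversal in the STZ model gave -4.43 (adjusted p = 0.0112). Reversal in the HFD model gave -3.07 (adjusted p = 0.114). The part of motor axons in its level was not tested. Among 9 genes of injured DRG axons, 6 were above every other library, the member Gal and the pan-neuronal gene Gap43 among them. Atf3, the injury-induced transcription factor, was at 10.87 against 10.41 and was not. Among 4 satellite glia genes 2 were, and Fabp7 was at 11.39 against a group median of 6.51.

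Of 10 Schwann cell genes, 6 adipocyte genes and 6 skeletal muscle genes, 0 were above every other library. The mean level of the Schwann cell genes in replicate 7 was 16.57, within the 16.24 to 16.98 of the 7 other libraries of its group. The mean adipocyte level was 11.15, within 10.77 to 13.75. Each of the 6 adipocyte genes was below its group median, with differences of -2.35 to -1.77 and a median of -2.08. For the 6 muscle genes the differences ran from -3.72 to 1.85, with a median of -3.24. Over all genes, replicate 7 was the highest library by more than 2 for 401 genes (2.22%), and no other library was so for more than 2 genes. The part of RNA from neuronal cell bodies in these values was not tested.

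**Figure D2:**
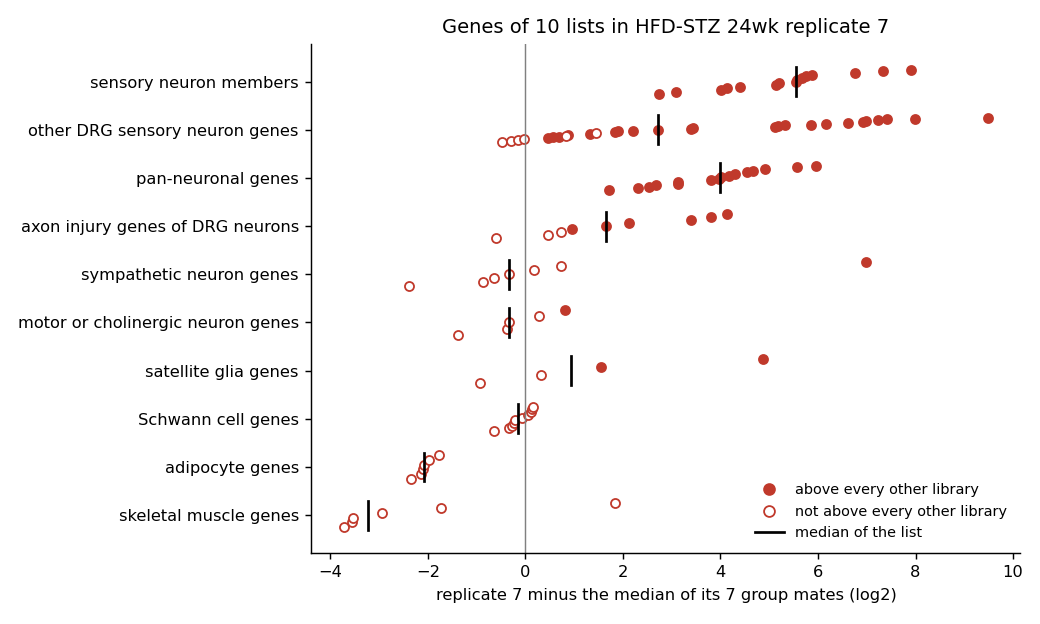
For each gene of 10 lists, the value in HFD-STZ replicate 7 at 24 weeks minus the median of the 7 other libraries of its group, on the log2 scale, with filled points for genes above every other library and black bars for list medians; genes above 22 are left out. The members, other DRG genes and pan-neuronal genes lie mostly to the right of 0, with a median of 5.54 for the members, and the medians of motor, sympathetic and Schwann cell genes lie at -0.33, -0.34 and -0.14.

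The 15 members above 22 were also set apart in the other 52 libraries by a narrow spread. Their SD over these libraries ran from 0.045 for Avil, an actin-binding protein, to 0.14 for Nefm, with a median of 0.072, against a median of 0.25 for the 18114 genes tested. The other 15 members had SDs between 0.25 and 0.65 with a median of 0.46. Avil stayed between 7.99 and 8.21, and the substance P precursor gene Tac1 between 6.84 and 7.14, over all 52 libraries. The non-members above 22 in replicate 7 likewise had SDs of at most 0.15. Log2 differences of these genes are therefore not on the same footing as those of the other 15 members, and the cause was not tested.

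**Figure D3:**
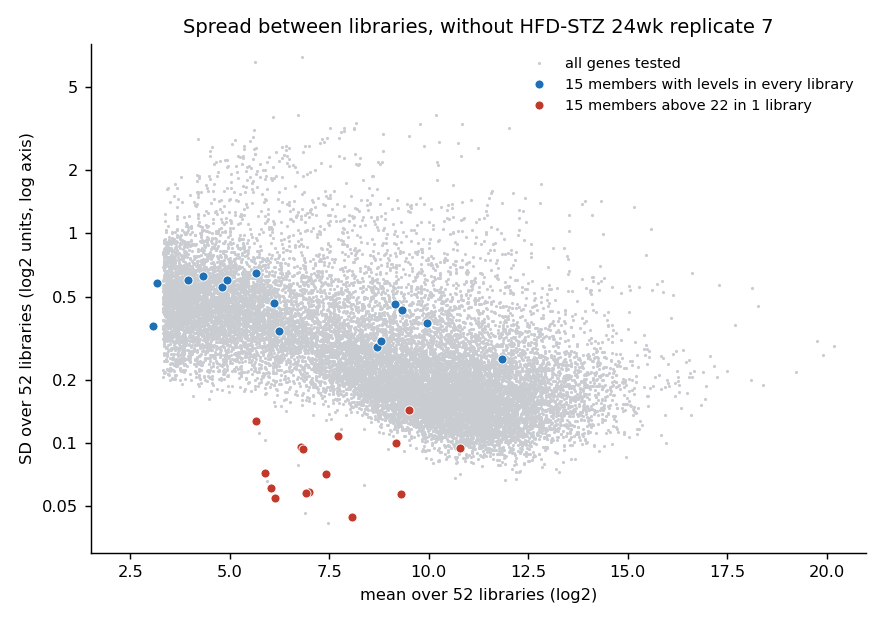
SD (log axis) against mean of the log2 value over 52 libraries, for 18114 genes tested (grey), the 15 members with usable levels in every library (blue) and the 15 members above 22 in 1 library (red). The red points lie at SDs of 0.045 to 0.14, at the 0.011th to the 14.6th percentile of all genes, and the blue points at 0.25 to 0.65.

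Without replicate 7, the channels of nociceptors varied within every group. Group means of Scn9a lay between 5.79 ± 0.44 (SD, n = 5) in SD mice at 16 weeks and 6.49 ± 0.41 (n = 7) in HFD mice at 16 weeks. Those of Scn11a lay between 4.40 ± 0.42 (n = 5) in SD mice at 16 weeks and 5.04 ± 0.27 (n = 7) in HFD mice at 24 weeks. P2rx3 ran from 3.64 ± 0.56 (n = 5) in SD mice at 16 weeks to 4.69 ± 0.70 (n = 7) in HFD-DR mice, and Trpv1 from 6.01 ± 0.36 (n = 5) in HFD-STZ mice at 16 weeks to 6.39 ± 0.34 (n = 7) in HFD-STZ mice at 24 weeks. In each of these genes, neighbouring groups in the order differed by less than 1 SD, and the highest and lowest groups overlapped. Trpa1 ran from 2.80 ± 0.76 (n = 7) in HFD-STZ mice at 24 weeks to 3.48 ± 0.54 (n = 7) in HFD-DR mice.

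The compressed channel and receptor genes showed little movement. Over the 52 libraries Scn10a, the sodium channel that marks nociceptors, lay between 6.65 and 7.09, and Mrgprd, a receptor of non-peptidergic nociceptors, between 5.77 and 6.09. Pirt, a membrane protein that regulates TRP channels, lay between 7.58 and 8.06, and the ectonucleotidase gene Entpd3 between 5.48 and 6.09.

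Among the neuropeptides, Calca lay between 9.21 and 9.52 and Calcb between 6.07 and 6.31. Gal, which is known to be induced after axon injury, had group means between 2.93 ± 0.41 (n = 8) in SD mice at 24 weeks and 3.25 ± 0.39 (n = 5) in HFD-STZ mice at 16 weeks. It stayed under the level needed for the test in every comparison without replicate 7.

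Of the identity genes, Isl1 ran from 3.63 ± 0.40 (n = 8) in SD mice at 24 weeks to 4.23 ± 1.02 (n = 6) in HFD-STZ-DR mice, and Pou4f1 from 4.52 ± 0.52 (n = 5) in SD mice at 16 weeks to 5.29 ± 0.44 (n = 7) in HFD mice at 24 weeks. The LIM homeodomain gene Isl2 lay between 5.92 and 6.19 and Elavl4, a neuronal RNA-binding protein, between 6.65 and 7.13. Ret ran from 8.72 ± 0.35 (n = 6) in HFD-STZ-DR mice to 9.43 ± 0.48 (n = 7) in HFD mice at 24 weeks.

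Group means of Nefh ran from 8.93 ± 0.40 (n = 8) in SD mice at 24 weeks to 9.60 ± 0.45 (n = 7) in HFD mice at 16 weeks, and those of Stmn2 from 9.59 ± 0.49 (n = 5) in SD mice at 16 weeks to 10.32 ± 0.38 (n = 7) in HFD mice at 24 weeks. Prph ran from 8.60 ± 0.18 (n = 5) in HFD-STZ mice at 16 weeks to 8.83 ± 0.14 (n = 6) in HFD-STZ-DR mice. Nefl lay between 10.66 and 11.06, Nefm between 9.33 and 9.98 and Tubb3, the neuronal tubulin, between 9.01 and 9.46.

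The synaptic and cytoplasmic members varied within groups. Uchl1 ran from 11.78 ± 0.13 (n = 5) in HFD-STZ mice at 16 weeks to 11.95 ± 0.24 (n = 6) in HFD-STZ-DR mice, Snap25 from 8.72 ± 0.33 (n = 8) in SD mice at 24 weeks to 8.92 ± 0.23 (n = 7) in HFD mice at 16 weeks, and Syt1 from 5.07 ± 0.91 (n = 5) in SD mice at 16 weeks to 5.93 ± 0.42 (n = 7) in HFD mice at 24 weeks. Cpne6, a calcium-dependent membrane-binding protein, lay between 7.33 and 7.65, and Clec2l, a C-type lectin, between 6.89 and 7.15.

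Group differences were tested with limma over all genes with a mean of at least 10 on the linear scale, without replicate 7. The filter was passed by 28 of the 30 members in most comparisons, and by 29 where Trpa1 passed as well. No member had an adjusted p under 0.05 in any of the comparisons, and within each comparison the libraries of both groups overlapped for every member tested. The members tested include the 15 with compressed values, whose SDs were 0.045 to 0.14. The limma prior follows the mean over all genes and draws such small variances toward those of other genes. A count of 0 members called says little about these 15.

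At 16 weeks, the question was what HFD and HFD-STZ had changed before reversal. Between HFD and SD mice, 0 of 28 members were called by limma, and over all genes tested 0.00556% were called. At an unadjusted p under 0.05 there were 2 members, Scn9a and P2rx3, both higher in HFD, beside 8.55% of all genes, and the exact permutation test of single genes gave 3 (these and Mrgprd). That test was run for the members only and is unadjusted, so its counts have no background over all genes and nothing is read from them. Scn9a was 5.22, 5.50, 5.87, 6.07 and 6.32 in the SD libraries, and in the HFD libraries its lowest, median and highest values were 5.88, 6.41 and 7.04. Of the 7 HFD libraries, 4 lay above all SD libraries and the others overlapped with them. The log2 difference was 0.70 (SE 0.24, limma adjusted p = 0.484, exact permutation p = 0.024). For P2rx3 the SD libraries were at 3.00, 3.20, 3.74, 3.88 and 4.39 and the HFD libraries at 3.91, 4.46 and 5.14 as lowest, median and highest, with 4 HFD libraries above all SD libraries and a difference of 0.83 (SE 0.29, limma adjusted p = 0.498, exact permutation p = 0.024). Clec2l had the smallest p among members that were lower, with a difference of -0.05. The median difference was 0.06 over the members and 0.01 over all genes. All 6 adipocyte genes were higher in HFD in the same comparison, 5 of them at an unadjusted p under 0.05, and their part in the result was not tested.

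For HFD-STZ against SD at 16 weeks, limma called 0 of 28 members and 0% of all genes tested, and 0 members and 1511 genes had an unadjusted p under 0.05, with 0 members by the permutation test. P2rx3 had the smallest p, with a difference of 0.72 (SE 0.33, limma adjusted p = 0.585). Trpv1 was the lowest-ranked in the other direction at -0.22. All 6 adipocyte genes were higher in HFD-STZ than in SD, 1 at an unadjusted p under 0.05 by limma, with a median difference of 1.01. All 6 muscle genes were lower, with a median of -1.25 and 0 at such a p. Their part in the result was not tested. For HFD-STZ against HFD, limma again called 0 of 28 members and 0% of all genes. Scn9a alone had an unadjusted p under 0.05, with 890 genes in all and Scn9a alone by the permutation test. Its HFD-STZ libraries were at 5.60, 5.72, 5.78, 6.17 and 6.50, 3 of them below all HFD libraries, and it differed by -0.53 (SE 0.22, limma adjusted p = 0.985, exact permutation p = 0.0429). Pirt led the members that were higher, with a difference of 0.12. All 6 adipocyte genes (4 at an unadjusted p under 0.05) and all 6 muscle genes (1) were lower in HFD-STZ in this comparison, with median differences of -1.37 and -1.32, and their part in the result was not tested.

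At 24 weeks, HFD against SD gave 0 of 28 members called by limma and 0.121% of all genes tested. Neither limma at an unadjusted p under 0.05 (1648 genes in all) nor the permutation test gave a member. Isl1 differed by 0.27 (SE 0.19, limma adjusted p = 0.671) and Tubb3 by -0.05, and these had the smallest p in each direction. Of 6 adipocyte genes, 5 were higher in HFD and 1 lower, 3 at an unadjusted p under 0.05 by limma, with a median difference of 0.93. All 6 muscle genes were lower, with a median of -1.72 and 0 at such a p. Their part in the result was not tested.

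HFD-STZ against SD at 24 weeks, without replicate 7, gave 0 of 28 members called by limma and 0.0559% of all genes, with 0 members and 1276 genes at an unadjusted p under 0.05. Nefh differed by 0.34 (SE 0.17, limma adjusted p = 0.714). The permutation test gave Scn10a alone, whose HFD-STZ libraries were at 6.65, 6.71 and 6.85 as lowest, median and highest and whose SD libraries were at 6.74, 6.82 and 6.94. The difference of -0.11 (SE 0.08, limma adjusted p = 0.803, exact permutation p = 0.00855) is in a gene with compressed values, and most of its limma SE comes from the trend over other genes. In HFD-STZ all 6 adipocyte genes were higher, 4 at an unadjusted p under 0.05, with a median difference of 1.04, and their part in the result was not tested.

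HFD-STZ against HFD at 24 weeks, without replicate 7, gave 0 of 28 members called by limma and 0% of all genes, with 2 members and 956 genes at an unadjusted p under 0.05, both members lower in HFD-STZ. Scn11a had a lowest, median and highest value of 3.76, 4.39 and 5.40 in HFD-STZ and of 4.58, 5.08 and 5.44 in HFD. Of the 7 HFD-STZ libraries, 5 were below all HFD libraries. The difference was -0.54 (SE 0.22, limma adjusted p = 0.934, exact permutation p = 0.0344). Pou4f1 differed by -0.47 (SE 0.21, limma adjusted p = 0.934, exact permutation p = 0.0495). The permutation test also gave Mrgprd and Scn10a, with differences of -0.09 and -0.15 in compressed values. Prph led the members that were higher, at 0.19.

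With replicate 7 left in, the 24-week HFD-STZ group stood above SD for all 14 members that could be fitted, with a median difference of 0.58 and a range from 0.35 to 1.20, and above HFD for all 14, with a median of 0.42. It stood above HFD-STZ mice at 16 weeks for all 15 members fitted, with a median of 0.65, and HFD-STZ-DR mice stood below it for all 15, with a median of -0.66. The 15 members above 22 could not be fitted. Only with replicate 7 did Trpa1 reach the level needed for a fit in these 4 comparisons, and Gal in the last 2. Over all genes, limma called 0.0336%, 0%, 0% and 0.084%, in the order given. The group SD of Nefh was 2.05 with replicate 7 and 0.29 without it, and its difference from SD mice went from 1.06 to 0.34. The list was chosen on this library, so nothing is read from these counts.

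Dietary reversal was compared within each model. For HFD-DR against HFD, limma called 0 of 29 members and 0.0108% of all genes, with 1 member and 1248 genes at an unadjusted p under 0.05. This member was Stmn2, which the permutation test alone gave too. Its lowest, median and highest values were 9.61, 9.86 and 10.26 in HFD-DR and 9.75, 10.58 and 10.66 in HFD. Of the 7 HFD libraries, 4 were above all HFD-DR libraries. The difference was -0.41 (SE 0.16, limma adjusted p = 0.651, exact permutation p = 0.0379). Scn9a led the members that were higher, at 0.25. All 6 adipocyte genes were lower in HFD-DR than in HFD, with a median difference of -1.27, and all 6 skeletal muscle genes were higher, with a median of 2.58, 4 and 5 of them at an unadjusted p under 0.05. Their part in the result was not tested.

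For HFD-STZ-DR against HFD-STZ without replicate 7, limma called 0 of 28 members and 0.625% of all genes, which is 112 genes, and with replicate 7 it called 15 genes. Ret was the member at an unadjusted p under 0.05, beside 1482 genes in all. Its lowest, median and highest values were 8.30, 8.81 and 9.20 in HFD-STZ-DR and 8.70, 9.38 and 9.75 in HFD-STZ. Of the 7 HFD-STZ libraries, 4 lay above all reversal libraries, and 2 of the 6 reversal libraries lay below all of those. The difference was -0.57 (SE 0.19, limma adjusted p = 0.317, exact permutation p = 0.0239). Leaving out HFD-STZ replicate 6 gave a difference of -0.67 and an adjusted p of 0.073 by limma, the lowest over 23 settings, and the highest was 0.769. The permutation test also gave Calcb, with a difference of 0.06 in compressed values, and Nefh led the members that were higher at 0.19. All 6 adipocyte genes were lower after reversal, 4 of them called, with a median difference of -2.46, and their part in the result was not tested.

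**Figure D4:**
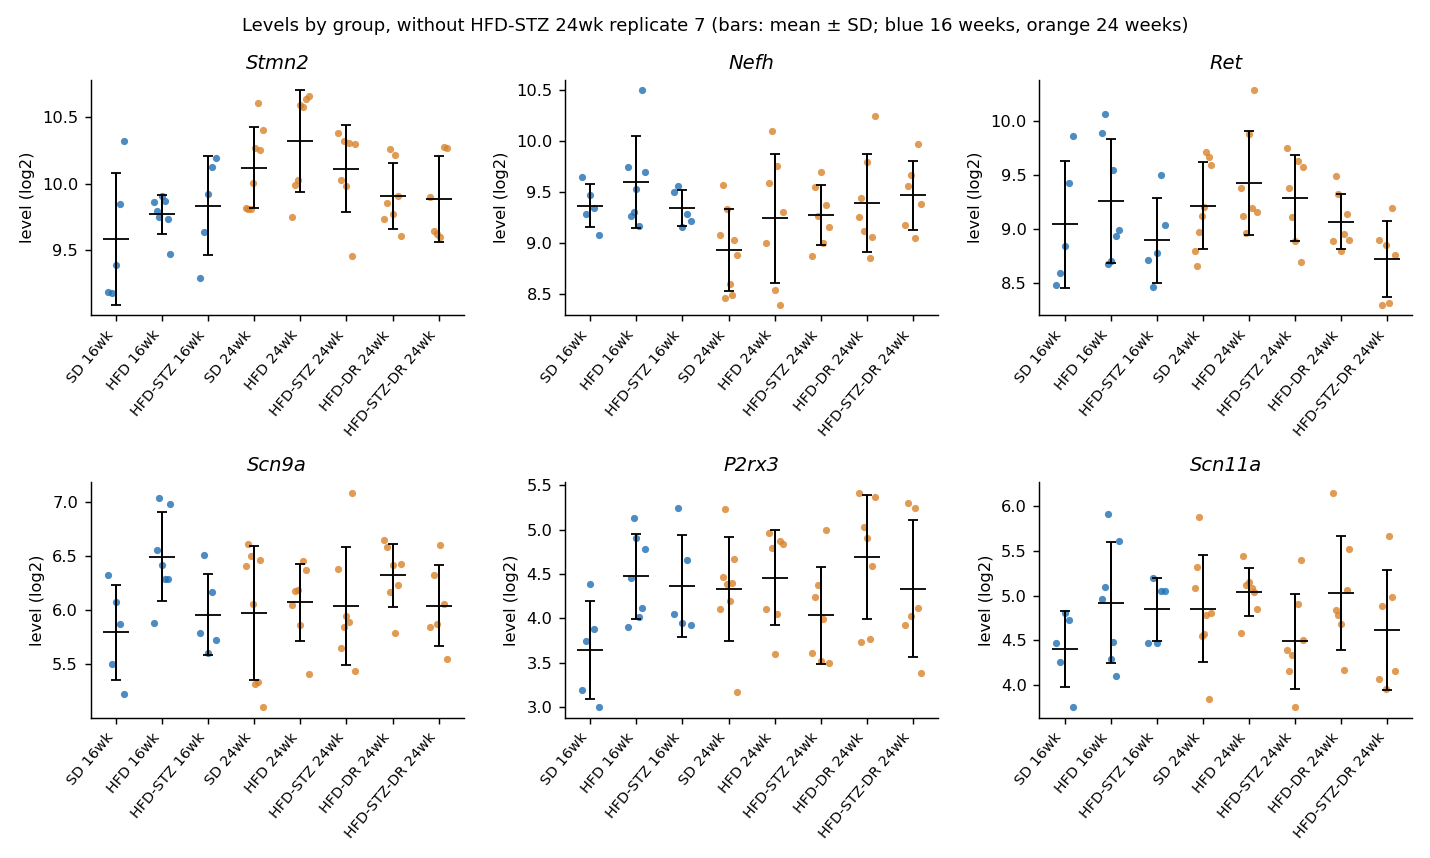
Log2 levels of 6 members in the 8 groups without HFD-STZ replicate 7 at 24 weeks; points are libraries (blue 16 weeks, orange 24 weeks) and bars are the mean and SD. The mean of Stmn2 is highest in HFD mice at 24 weeks (10.32 ± 0.38) and that of Ret lowest in HFD-STZ-DR mice (8.72 ± 0.35), and the groups compared overlap.

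After reversal, the groups were compared with SD mice of the same age. HFD-DR against SD gave 0 of 29 members called by limma and 0% of all genes, with 1 member (Nefh) and 935 genes at an unadjusted p under 0.05 and Clec2l by the permutation test. HFD-STZ-DR against SD gave 0 of 28 and 0%, with 2 members and 1644 genes at an unadjusted p under 0.05, and the permutation test gave the same 2. Nefh had a lowest, median and highest value of 8.46, 8.95 and 9.57 in SD mice, 8.86, 9.25 and 10.24 in HFD-DR mice and 9.05, 9.47 and 9.97 in HFD-STZ-DR mice. In each reversal group 2 libraries lay above all SD libraries. The difference was 0.46 (SE 0.21, limma adjusted p = 0.925, exact permutation p = 0.0609) for HFD-DR and 0.54 (SE 0.19, limma adjusted p = 0.412, exact permutation p = 0.023) for HFD-STZ-DR. Ret was lower in HFD-STZ-DR than in SD by -0.50 (SE 0.19, limma adjusted p = 0.454, exact permutation p = 0.038). Stmn2 led the members that were lower in HFD-DR, at -0.21. These comparisons share the SD libraries. The adipocyte genes were lower than in SD mice in both, with median differences of -0.44 and -1.53, and their part in the result was not tested.

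Between the reversal groups, HFD-STZ-DR against HFD-DR, limma called 0 of 28 members and 0% of all genes, with Ret and 653 genes at an unadjusted p under 0.05 and 0 members by the permutation test. Ret differed by -0.35 (SE 0.16, limma adjusted p = 0.999) and Uchl1 by 0.14. All 6 adipocyte genes were lower in HFD-STZ-DR, 1 at an unadjusted p under 0.05 by limma, with a median difference of -1.05. All 6 muscle genes were lower too, with a median of -1.82 and 0 at such a p. Their part in the result was not tested.

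From 16 to 24 weeks of age, limma called 0 of 28 members in SD mice (0% of all genes), in HFD mice (0.0653%) and, without replicate 7, in HFD-STZ mice (0%). In SD mice, 3 members and 1866 genes had an unadjusted p under 0.05. Stmn2, which is made in growing and regenerating axons, was at 9.18, 9.19, 9.39, 9.85 and 10.32 at 16 weeks and at 9.81, 10.13 and 10.61 as lowest, median and highest at 24 weeks. It was higher by 0.54 (SE 0.20, limma adjusted p = 0.437, exact permutation p = 0.0373). P2rx3 was higher by 0.69 (SE 0.31, limma adjusted p = 0.468), and Nefh lower by -0.44 (SE 0.18, limma adjusted p = 0.459). The permutation test gave Stmn2 and Clec2l. All 6 adipocyte genes were higher at 24 weeks in SD mice, with a median difference of 1.93, all 6 muscle genes were higher, with a median of 2.42, and all 10 Schwann cell genes were lower, with a median of -0.31. Their part in the result was not tested.

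In HFD mice, Stmn2 was the only member at an unadjusted p under 0.05, by limma (1083 genes in all) and by the permutation test. It had a lowest, median and highest value of 9.48, 9.79 and 9.91 at 16 weeks and 9.75, 10.58 and 10.66 at 24 weeks. Of the 7 older libraries, 6 lay above all of the younger ones. The difference was 0.55 (SE 0.14, limma adjusted p = 0.345, exact permutation p = 0.00408), and the adjusted p ran from 0.147 to 0.994 over 24 settings. Scn9a led the members that were lower, at -0.42. All 10 Schwann cell genes were lower at 24 weeks in these mice, with a median difference of -0.20, and their part in the result was not tested.

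In HFD-STZ mice, 0 members and 2770 genes had an unadjusted p under 0.05 without replicate 7. Trpv1 differed by 0.38 (SE 0.20, limma adjusted p = 0.372). Scn10a was at 6.79, 6.81, 6.85, 6.89 and 6.96 at 16 weeks and at 6.65, 6.71 and 6.85 as lowest, median and highest at 24 weeks, a difference of -0.13 (SE 0.09, limma adjusted p = 0.474, exact permutation p = 0.00631) in compressed values. The permutation test also gave Calcb and Mrgprd, both compressed and lower at 24 weeks. The 6 adipocyte genes were all higher at 24 weeks, each at an unadjusted p under 0.05, with a median difference of 1.69. All 6 muscle genes were higher, with a median of 1.83, and all 10 Schwann cell genes lower, with a median of -0.21. Their part in the result was not tested.

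The change of the HFD effect with age and of the DR effect with STZ were tested as interactions. Limma called 0 of 28 members and 0% of all genes in each, with 0 members and 303 and 314 genes at an unadjusted p under 0.05. P2rx3 had the smallest p for a lower HFD effect at 24 weeks, with a difference of effects of -0.70 (SE 0.41), and Clec2l for a higher one, at 0.08. For DR with STZ these were Scn9a at -0.24 and Stmn2 at 0.19. The adjusted p of all 4 was 1 by limma.

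Other genes of sensory neurons were not called either. Of 31 measured DRG genes outside the members, 23 or 24 were tested and 0 called in each of the 16 comparisons without replicate 7, and of 16 pan-neuronal genes 0 were called. At most 4 DRG genes and 2 pan-neuronal genes had an unadjusted p under 0.05 by limma in a comparison. Both counts were reached from 16 to 24 weeks in SD mice, with 24 DRG and 16 pan-neuronal genes tested. In that comparison 10.5% of all genes had such a p.

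Across the 52 other libraries, deviations of the members from their group means did not all run together. The median Pearson r between members was 0.14 over the 105 pairs of members with usable levels in every library, 0.34 over the 105 pairs of compressed members and 0.27 between the sets. These values describe libraries of 8 groups that share normalization and tissue composition, and no p is given. The neurofilament genes were closest, with r of 0.86 for Nefl with Nefm, which share antisense exons, and 0.86 for Nefl with Nefh, which do not overlap. Scn9a and Syt1 reached 0.79, and Scn10a and Scn11a 0.71.

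The members differed in how they ran with other lists. Scn9a, Scn10a, Scn11a, P2rx3, Trpa1, Syt1, Pou4f1 and Calcb had r between 0.69 and 0.76 with the mean of 29 other DRG genes, and between -0.12 and 0.43 with that of 10 Schwann cell genes. Nefh, Nefl, Prph, Snap25, Tubb3 and Uchl1 had r between 0.62 and 0.89 with the Schwann cell genes and between 0.11 and 0.38 with the DRG genes. Ret and Stmn2 ran against both, with r of -0.55 and -0.55 with the Schwann cell genes and -0.45 and -0.47 with the DRG genes, and had r of 0.61 and 0.58 with the 6 adipocyte genes. Trpv1 had r of -0.45 with the Schwann cell genes and 0.47 with the adipocyte genes. Ret and Stmn2 had r of 0.66 with each other and a median r of -0.34 and -0.36 with the other usable members.

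**Figure D5:**
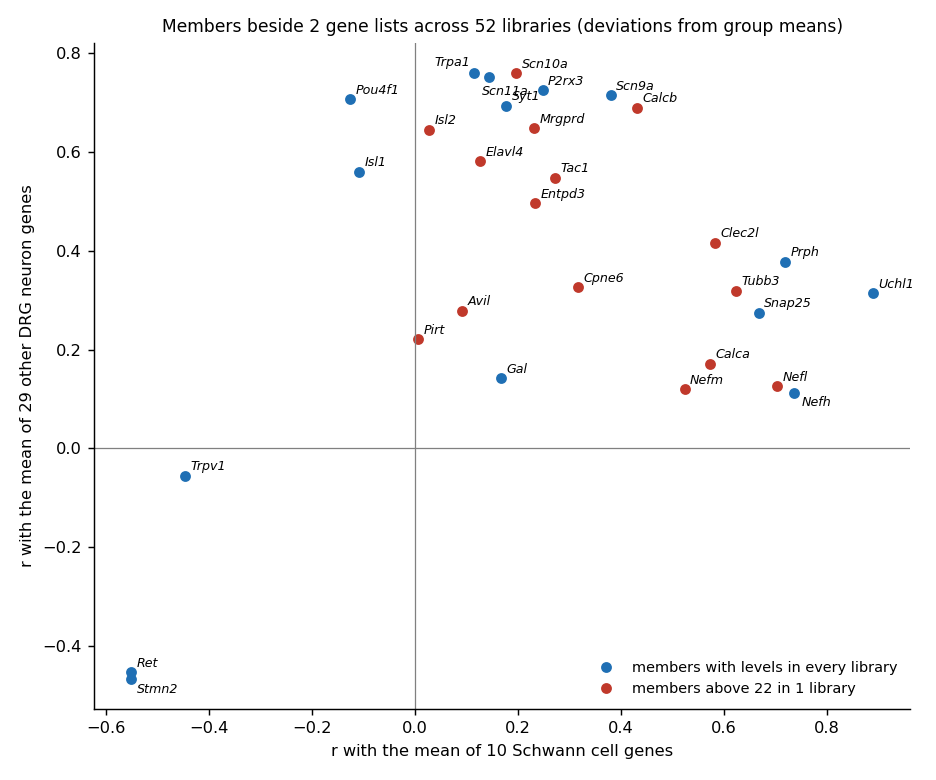
Pearson r of each member with the mean level of 10 Schwann cell genes (x axis) and of 29 other DRG genes (y axis), as deviations from group means over 52 libraries; blue members have usable levels in every library and red members are those above 22 in replicate 7. Most channel genes lie at the top, Trpv1 at the left near 0, neurofilament genes and Uchl1 at the right and Ret and Stmn2 at the lower left.

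The mean z-score of the 30 members gave the order of the 52 libraries without regard to group. It was highest in HFD-DR replicate 1 (1.11), HFD-DR replicate 7 (1.04) and HFD replicate 3 at 24 weeks (0.95), and lowest in SD replicate 5 at 16 weeks (-0.89). Group medians lay between -0.37 in SD mice at 16 weeks and 0.20 in HFD mice at 16 weeks, and the ranges of the 8 groups overlapped. At 24 weeks, HFD libraries ran from -0.28 to 0.95 with a median of -0.16, and SD libraries from -0.60 to 0.61 with a median of -0.28. Over the 8 runs of consecutive library numbers in the labels, medians lay between -0.49 and 0.34. None of these 52 libraries came near replicate 7 of HFD-STZ, which held the highest value of every member.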

How the data were processed

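RNA was measured in 53 sciatic nerve samples. The authors removed adapters and reads under Q30, aligned with HISAT2 to mm10, counted with featureCounts and used DESeq2 for differential expression, and versions are not given in the sources used here. They deposited 1 log2 value per gene symbol and sample, normalized in a way the files do not name. The values are neither counts nor FPKM, so reads per gene, and counting precision, are unknown. The labels and the study's methods name different library kits, and the series' design text and the methods describe the control diet differently. None was taken as settled.

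The members and lists were chosen with earlier results of these data known. Group differences were fitted with limma 3.58.1 in R 4.3.3 (empirical Bayes with a mean trend) over the libraries of the groups compared, for genes with a mean of at least 10 on the linear scale. A gene above 22 in a library fitted was left out of that fit. The Benjamini-Hochberg threshold was 0.05 over all genes tested. Exact permutation p values are 2-sided, for single genes, and unadjusted. The script was tested on simulated data. Members named in a comparison were those called and, with none, the smallest p in each direction; others at an unadjusted p under 0.05 in either test were named after their values were seen. Figures and descriptions used Python 3.11.15, pandas 2.3.3, numpy 2.4.6 and matplotlib 3.10.9. Alternatives were other filters, variance priors and centring, joint fits of 8 groups, a term for runs of consecutive library numbers, and leaving out each library.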

Additional observations from a re-analysis of the deposited data

Results flagged for a closer look

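In 53 of 240 pairs of a member and a group, 1 library lay far from the others of its group by the gap to its nearest neighbour. Chance flags about 1 in 20 groups. Of these, 30 were in HFD-STZ replicate 7 at 24 weeks, the library on which the member list was chosen. Its usable levels were Isl1 at 11.31, Nefh at 15.02, Scn9a at 11.01, Scn11a at 11.15, P2rx3 at 9.18, Trpv1 at 10.78, Trpa1 at 10.33, Prph at 14.55, Uchl1 at 15.03, Snap25 at 14.53, Ret at 12.11, Pou4f1 at 10.63, Syt1 at 10.76, Stmn2 at 14.32 and Gal at 6.99. Its values above 22, which are no levels, were Avil at 60.31, Calca at 57.95, Calcb at 56.97, Clec2l at 56.43, Cpne6 at 60.81, Elavl4 at 55.01, Entpd3 at 49.81, Isl2 at 53.11, Mrgprd at 54.16, Nefl at 56.99, Nefm at 54.09, Pirt at 53.47, Scn10a at 53.40, Tubb3 at 53.33 and Tac1 at 60.16.

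The other 23 were among 210 pairs outside that group. In HFD replicate 7 at 16 weeks Calca at 9.36 was the highest of its group and Stmn2 at 9.48 was the lowest of its group. In SD replicate 3 at 24 weeks Clec2l at 7.06 was the highest of its group. In SD replicate 3 at 16 weeks Cpne6 at 7.50 and Tac1 at 6.97 were each the highest of their group. In HFD-STZ replicate 5 at 16 weeks Cpne6 at 7.34 was the lowest of its group. In SD replicate 2 at 24 weeks Cpne6 at 7.54, Nefl at 10.91, Nefm at 9.70, Prph at 9.37 and Tubb3 at 9.46 were each the highest of their group. In HFD replicate 3 at 24 weeks Cpne6 at 7.62 was the highest of its group. In HFD-STZ replicate 4 at 16 weeks Entpd3 at 6.02 and Pirt at 8.06 were each the highest of their group. In HFD-STZ-DR replicate 4 at 24 weeks Isl1 at 6.11 was the highest of its group. In HFD-STZ-DR replicate 5 at 24 weeks Nefm at 9.85 was the highest of its group. In HFD replicate 6 at 16 weeks Nefh at 10.49 was the highest of its group. In HFD replicate 1 at 16 weeks Pirt at 7.80 was the highest of its group. In SD replicate 4 at 24 weeks Pirt at 8.01 was the highest of its group and Trpv1 at 5.54 was the lowest of its group. In HFD replicate 5 at 24 weeks Trpv1 at 5.96 was the lowest of its group. In SD replicate 5 at 24 weeks Pou4f1 at 6.64 was the highest of its group. In HFD-DR replicate 7 at 24 weeks Tac1 at 7.14 was the highest of its group. Many of these are members with compressed values, where the whole spread is small.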

How the results depend on the processing

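Limma called 0 members in all 384 alternatives of the 16 comparisons whose main fit held no HFD-STZ replicate 7 at 24 weeks. The alternatives were filter, variance prior, centring, joint fits, library-number run as a covariate, and leaving out each library. Where 24-week HFD-STZ mice were not compared, the planned joint fits of 8 groups did hold that library. Those fits could not test the 15 members above 22 in it. The count of 0 says little about these 15 in the other fits too, since limma draws their small variances toward those of other genes. For the members named by the smallest p, the direction held in all alternatives and 773 values stayed on the same side of the threshold. The other 11 were past it by the permutation test of that gene alone, which is unadjusted. The joint fits without that library were added after the data were seen. Of the 15 members with usable levels, the mean 24-week HFD-STZ level of 14 moved by more than 1 SD when that library was included, and Ret did not. The labels give no replicate numbers that pair groups, and the term for runs of library numbers changed no call. Reads per gene are unknown, so a low level such as that of Gal or Trpa1 has no known counting error, and log2 differences of the 15 members with compressed values cannot be set against those of the others.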
